A study of Mus musculus with 7 samples.

Results

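The loci described here are those of 10 genes of the naive pluripotency network, *Nanog*, *Esrrb*, *Tfcp2l1*, *Zfp42*, *Sall4*, *Prdm14*, *Tbx3*, *Nr5a2*, *Nr0b1* and *Tcl1*, out of 21938 protein-coding genes of the mouse annotation (GENCODE M21, mm10). Every called ATAC-seq peak lying within 20 kb of a gene body was kept, and touching or overlapping peaks of the 7 libraries were joined into regions. This gave 36 regions at the 10 loci, of 104248 regions on chromosomes 1 to 19, X and Y. ATAC-seq maps open chromatin through the DNA that Tn5 transposase can reach and cut. The cells were 4F-MEFs, embryonic fibroblasts from a cross of mice with a tetO-Pou5f1,-Klf4,-Sox2,-Myc cassette in the Col1a1 locus (B6;129S4 background, allele tm1 Hoch) and mice with the rtTA*M2 transactivator in Gt(ROSA)26Sor (B6.Cg background, allele tm1 Jae), so that doxycycline switches on Oct4 (the product of *Pou5f1*), Klf4, Sox2 and c-Myc (OSKM). All MEF libraries carried these alleles. Cells of day 0 had no doxycycline, and those of days 1, 2, 3, 6 and 9 were kept in 2 µg/mL of it. By the paper's protocol, doxycycline was given in MEF medium with more serum than before. ESC medium with LIF replaced it when early colonies emerged, so the day 9 cells can also differ in medium. The remaining library came from untreated ESCs grown in serum and LIF. The culture protocol names their line as Bruce-4, whereas the genotype entered for them is that of the MEFs.

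Naive pluripotency is the state of the pre-implantation epiblast and of mouse ESCs kept with LIF. It rests on a network of transcription factors that bind each other's enhancers, and most of these genes are silent in fibroblasts and are switched on late when fibroblasts are reprogrammed. Esrrb and Nr5a2 are nuclear receptors that recognise closely related DNA letters, Tfcp2l1, Tbx3 and Nanog are DNA-binding factors of the network, and Zfp42 (Rex1), Sall4 and Prdm14 are zinc-finger proteins. Nr0b1 (Dax1) is an unusual nuclear receptor that acts as a cofactor. Tcl1 is not a DNA-binding factor but a co-activator of the Akt kinase, and is counted here as a network gene.

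Each time-point had 1 library, so no value below has a replicate check, no error can be attached to it, and no test between time-points was made. The peak lists held between 27074 peaks, in ESCs, and 61241 peaks, on day 0, and the lists of days 2 and 9 were also short, with 33174 and 33007 peaks. They carry no scores, so read support cannot be judged peak by peak, and a missing peak does not show that the chromatin was closed. MEF cultures contain cells at different stages, and a peak that appears in more cells cannot be told apart from a stronger opening in each cell. Of 10 fibroblast marker genes, 9 had a promoter peak on day 0 and 2 had one in ESCs. Of 7 ESC marker genes, 3 had a promoter peak on day 0 and 2 in ESCs (*Pou5f1* and *Fgf4*), so peaks were missing at the promoters of most defining markers in the ESC library itself. Promoter peaks were present in ESCs at 2 of 5 primitive endoderm genes and at 1 of 5 trophoblast genes, against 2 and 3 on day 0.

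Regions were sorted by the libraries in which they had a peak. At the 10 loci, 14 of 36 regions (38.9%) had a peak in ESCs and none on day 0, and these are called gained below. Over all regions the share was 12.9%. A further 13 regions (36.1%) had a day 0 peak and no ESC peak, where all regions gave 44.4%. There were 7 transient regions (19.4%), with a peak on at least 1 day of doxycycline and neither on day 0 nor in ESCs, against 30.7% of all regions. The other 2 regions (5.56%), at *Nanog* and *Tbx3*, had a peak in all 7 libraries, which 9.74% of all regions had. The bars of class shares show that the gained class took the largest share at these loci, while genome-wide the lost and transient classes were larger.

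**Figure D1:**
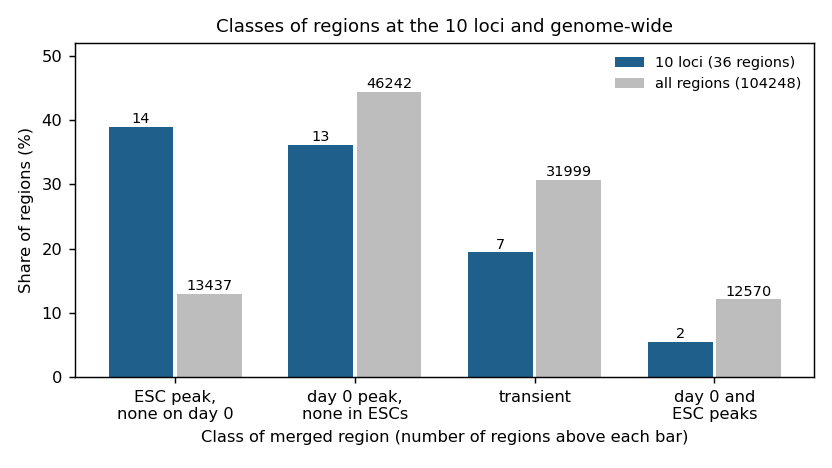
The vertical axis is the share of merged regions in percent, and the horizontal axis gives the 4 classes, with the number of regions above each bar. Blue bars are the 36 regions at the 10 loci and grey bars are all 104248 regions. Gained regions made up 38.9% of the first and 12.9% of the second.

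The ESC list was the shortest of the 7 and yet held the most peaks at these loci. From day 0 through days 1, 2, 3, 6 and 9, the number of peaks within 20 kb of the 10 genes was 15, 12, 7, 14, 11 and 6, and in ESCs it was 16. Of the 14 gained regions, 1 had a peak on each of days 1 and 2, and 2 had a peak on each of days 3, 6 and 9. Doxycycline-treated cells therefore had peaks at 2 of the 14 regions (14.3%) on any day, and 12 were seen first in ESCs. Among all gained regions of the genome, 24.4% had a peak on a day between day 0 and ESCs. Both early regions belonged to *Tfcp2l1*. At least 1 gained region lay within 20 kb of 7 of the 10 genes, where 36.9% of protein-coding genes had one. The exceptions were *Nanog*, *Nr5a2* and *Tcl1*.

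The windows of the 10 genes ranged from 44.2 kb for *Nr0b1* to 201 kb for *Esrrb*, and the median window of protein-coding genes was 57.4 kb. Per length, the loci had fewer regions than the average gene window, 44.3 against 60 regions per Mb, and more gained regions, 17.2 against 6.59 per Mb. *Esrrb* (5) and *Tfcp2l1* (4), both long genes, held most of the gained regions. The grid of regions by library shows 12 of the 14 gained regions with a green box in the ESC column and nowhere else.

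**Figure D2:**
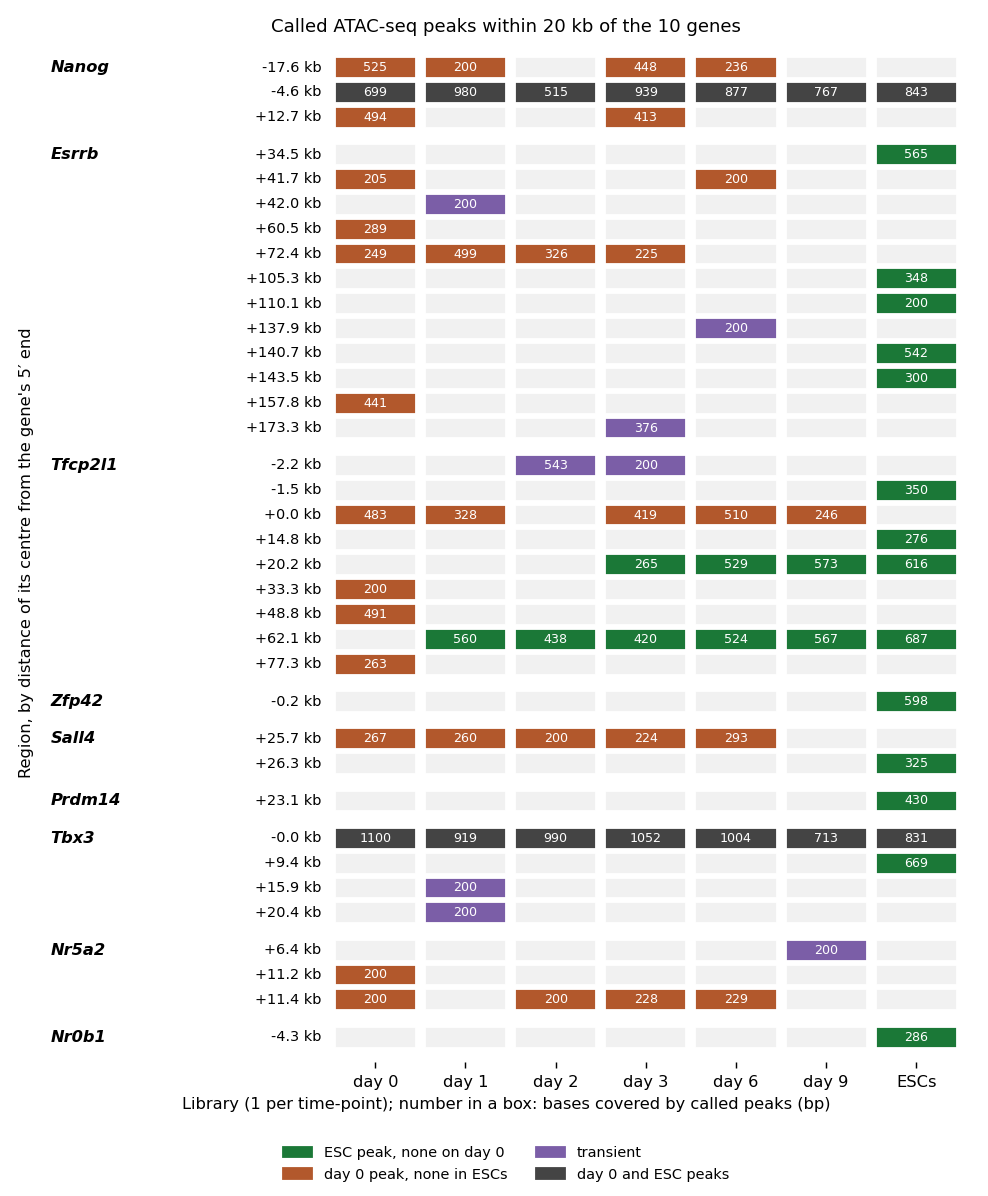
Each row is a region, labelled with the distance of its centre from the 5′ end of the gene in kb, and each column is a library. A coloured box marks a called peak and holds the number of bases it covered. Only the rows of *Tfcp2l1* at 20.2 and 62.1 kb have green boxes before the ESC column, and *Tcl1* has no region and no row.

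The 200 bases at the centre of 8 regions, all but the first gained, are given here. They were read from GRCm38.p6 (mm10) on the strand of the gene. Capitals mark matches on either strand to short motifs searched with fixed letters, namely the POU octamer ATGCAAAT, the SOX motif CATTGT, the KLF motif GGGNGTGG, the ESRRB motif CAAGGTCA, the AP-1 motif TGANTCA, the TEAD motif GGAATG and the E-box CACGTG. The region upstream of *Nanog* and the intronic region of *Tfcp2l1* were chosen for display after their values were seen. The gained region in the window of *Sall4*, near the start of *Atp9a*, is not shown. Its central bases had 76% GC and no match to these motifs.
Nanog, 4.62 kb upstream, chr6:122702771-122702970, plus strand, a peak in all libraries: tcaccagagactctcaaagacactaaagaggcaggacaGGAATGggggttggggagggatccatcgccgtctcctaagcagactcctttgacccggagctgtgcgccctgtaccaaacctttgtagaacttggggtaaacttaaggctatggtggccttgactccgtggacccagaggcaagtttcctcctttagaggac
Tfcp2l1, downstream, chr1:118689965-118690164, plus strand, from day 1: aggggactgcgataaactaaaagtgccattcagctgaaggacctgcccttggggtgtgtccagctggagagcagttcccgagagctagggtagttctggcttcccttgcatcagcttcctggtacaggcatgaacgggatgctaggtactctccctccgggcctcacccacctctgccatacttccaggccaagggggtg
Tfcp2l1, intron, chr1:118648077-118648276, plus strand, from day 3: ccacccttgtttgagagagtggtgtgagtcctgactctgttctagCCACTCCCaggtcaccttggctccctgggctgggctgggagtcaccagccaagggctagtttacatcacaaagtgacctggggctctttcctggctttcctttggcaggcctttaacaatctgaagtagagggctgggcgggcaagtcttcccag
Esrrb, intron, chr12:86395480-86395679, plus strand, ESCs: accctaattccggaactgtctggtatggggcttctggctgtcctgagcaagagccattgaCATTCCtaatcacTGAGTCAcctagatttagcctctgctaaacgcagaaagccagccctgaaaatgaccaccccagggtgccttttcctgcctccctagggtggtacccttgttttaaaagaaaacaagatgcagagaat
Zfp42, promoter, chr8:43307042-43307241, minus strand, ESCs: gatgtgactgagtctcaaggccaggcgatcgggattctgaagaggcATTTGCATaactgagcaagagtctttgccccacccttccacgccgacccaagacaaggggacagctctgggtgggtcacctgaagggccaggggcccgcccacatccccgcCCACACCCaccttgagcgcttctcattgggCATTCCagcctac
Prdm14, downstream, chr1:13104009-13104208, minus strand, ESCs: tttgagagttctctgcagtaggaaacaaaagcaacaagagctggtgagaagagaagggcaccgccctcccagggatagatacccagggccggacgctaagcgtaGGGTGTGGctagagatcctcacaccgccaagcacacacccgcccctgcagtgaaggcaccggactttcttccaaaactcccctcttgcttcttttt
Tbx3, internal TSS, chr5:119680011-119680210, plus strand, ESCs: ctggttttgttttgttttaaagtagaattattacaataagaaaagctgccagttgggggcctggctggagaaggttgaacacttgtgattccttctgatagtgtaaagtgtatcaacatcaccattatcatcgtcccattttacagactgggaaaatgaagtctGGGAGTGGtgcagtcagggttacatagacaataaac
Nr0b1, upstream, chrX:86187385-86187584, plus strand, ESCs: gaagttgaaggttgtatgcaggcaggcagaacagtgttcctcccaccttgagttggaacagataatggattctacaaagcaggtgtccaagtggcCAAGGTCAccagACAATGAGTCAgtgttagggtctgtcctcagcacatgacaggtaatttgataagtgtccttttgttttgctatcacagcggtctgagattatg

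*Tfcp2l1* (chr1:118627945-118685168, plus strand) was the locus where gained regions had peaks during doxycycline treatment. Its product is a factor that sustains self-renewal downstream of LIF. The earliest region, chr1:118689706-118690423, lay downstream of the gene, its centre 62.1 kb from the 5′ end. Day 0 had no peak there. On days 1, 2, 3, 6 and 9 peaks covered 560 (in 2 peaks), 438, 420, 524 and 567 bp, and the ESC peak was 687 bp wide, so the region was called in every library after day 0. The other early region, chr1:118647863-118648490, lay in an intron 20.2 kb from the 5′ end. It had no peak on days 0, 1 and 2. Days 3, 6 and 9 had peaks of 265, 529 and 573 bp, and ESCs had one of 616 bp. Peak width at this site was thus greater in each later library in which it was called.

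At the same gene, 2 more gained regions were called in ESCs alone. One was an upstream region 1.46 kb from the 5′ end (chr1:118626310-118626659, 350 bp), and the other an intronic region at 14.8 kb (chr1:118642630-118642905, 276 bp). The promoter went the other way. A region over the 5′ end, chr1:118627651-118628283, was called on days 0, 1, 3, 6 and 9 with 483, 328, 419, 510 and 246 bp covered, and had no peak on day 2 or in ESCs. On day 2 the nearest peak was instead a transient one 2.25 kb upstream (chr1:118625428-118625970), called on days 2 and 3 with 543 and 200 bp. In ESCs the nearest peak was the upstream region, 1.29 kb from the 5′ end. Besides the promoter, 3 further regions (2 intronic, 1 downstream) had a peak on day 0 and in no later library.

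*Esrrb* (chr12:86361117-86521628, plus strand), which encodes an orphan nuclear receptor at the centre of the naive network, had the most regions, 12 in all. Its 5 gained regions were all called in ESCs alone. Their ESC peaks were 565 bp at chr12:86395298-86395862, 348 bp at chr12:86466233-86466580, 200 bp at chr12:86471129-86471328, 542 bp at chr12:86501572-86502113 and 300 bp at chr12:86504431-86504730. The first 4 were intronic, and the last lay within 1 kb of a TSS inside the gene and overlapped an exon. No library had a peak within 1 kb of the 5′ end of the gene, and the nearest ESC peak was 34.2 kb from it.

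The 4 day 0 peaks of *Esrrb* lay elsewhere in the gene. One, of 289 bp at chr12:86421519-86421807, was over an internal TSS and was seen on day 0 alone. An intronic region, chr12:86433223-86433791, was called on days 0, 1, 2 and 3, with 249, 499, 326 and 225 bp covered. Peaks on doxycycline that were in neither end state were narrow and scattered, with 1 each on days 1, 3 and 6, of 200, 376 and 200 bp. Over the whole window, 4 regions had a day 0 peak, days 1, 2, 3 and 6 had 2, 1, 2 and 2, day 9 had 0, and ESCs had 5. In bases, peaks covered 1184 bp in day 0 MEFs, then 699, 326, 601 and 400 bp on days 1, 2, 3 and 6, nothing on day 9, and 1955 bp in ESCs. The library of day 9 thus lacked both the fibroblast and the ESC peaks of this gene.

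*Nanog* (chr6:122707489-122714633, plus strand), the homeodomain factor of the ground state, had no gained region. A distal region 4.62 kb upstream, chr6:122702369-122703372, had a peak in each library. Its width was 699 bp in day 0 MEFs, then 980, 515, 939, 877 and 767 bp on days 1, 2, 3, 6 and 9, and 843 bp in ESCs. Day 0 and ESCs lay within the range of the doxycycline days, so the called width separated neither end state. An enhancer in the stretch directly upstream of *Nanog* is known from ESCs. Whether the region 4.62 kb upstream is that enhancer was not checked. In these lists the region was already called in day 0 MEFs. The promoter had no peak in any of the libraries, and the nearest peak to the 5′ end was this upstream region each time, at 4.12 to 4.49 kb. The other 2 regions carried fibroblast peaks. The one 17.6 kb upstream was called on days 0, 1, 3 and 6 (525, 200, 448 and 236 bp) and the one 12.7 kb from the 5′ end, beyond the gene, on days 0 and 3 (494 and 413 bp), and neither was called on day 9 or in ESCs. The window also holds part of *Slc2a3*, a glucose transporter gene, though the nearest TSS to all 3 regions was that of *Nanog*.

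*Tbx3* (chr5:119670669-119684724, plus strand), a T-box factor that is also used in limb and other mesenchyme, had a promoter peak in all 7 libraries. The peak was 1100 bp wide in day 0 MEFs, then 919, 990, 1052, 1004 and 713 bp on days 1, 2, 3, 6 and 9, and 831 bp in ESCs. These were among the widest peaks at the 10 loci, and the 2 narrowest came from the short lists of day 9 and ESCs. The list of day 2 was also short, but its peak of 990 bp was wider than that of day 1. A gained region, chr5:119679777-119680445, was called in ESCs alone with a peak of 669 bp. It lay inside the gene at 9.44 kb, over an internal TSS. Day 1 alone had 2 more peaks, each of 200 bp, downstream of the gene and over the non-coding gene *Tbx3os2*.

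**Figure D3:**
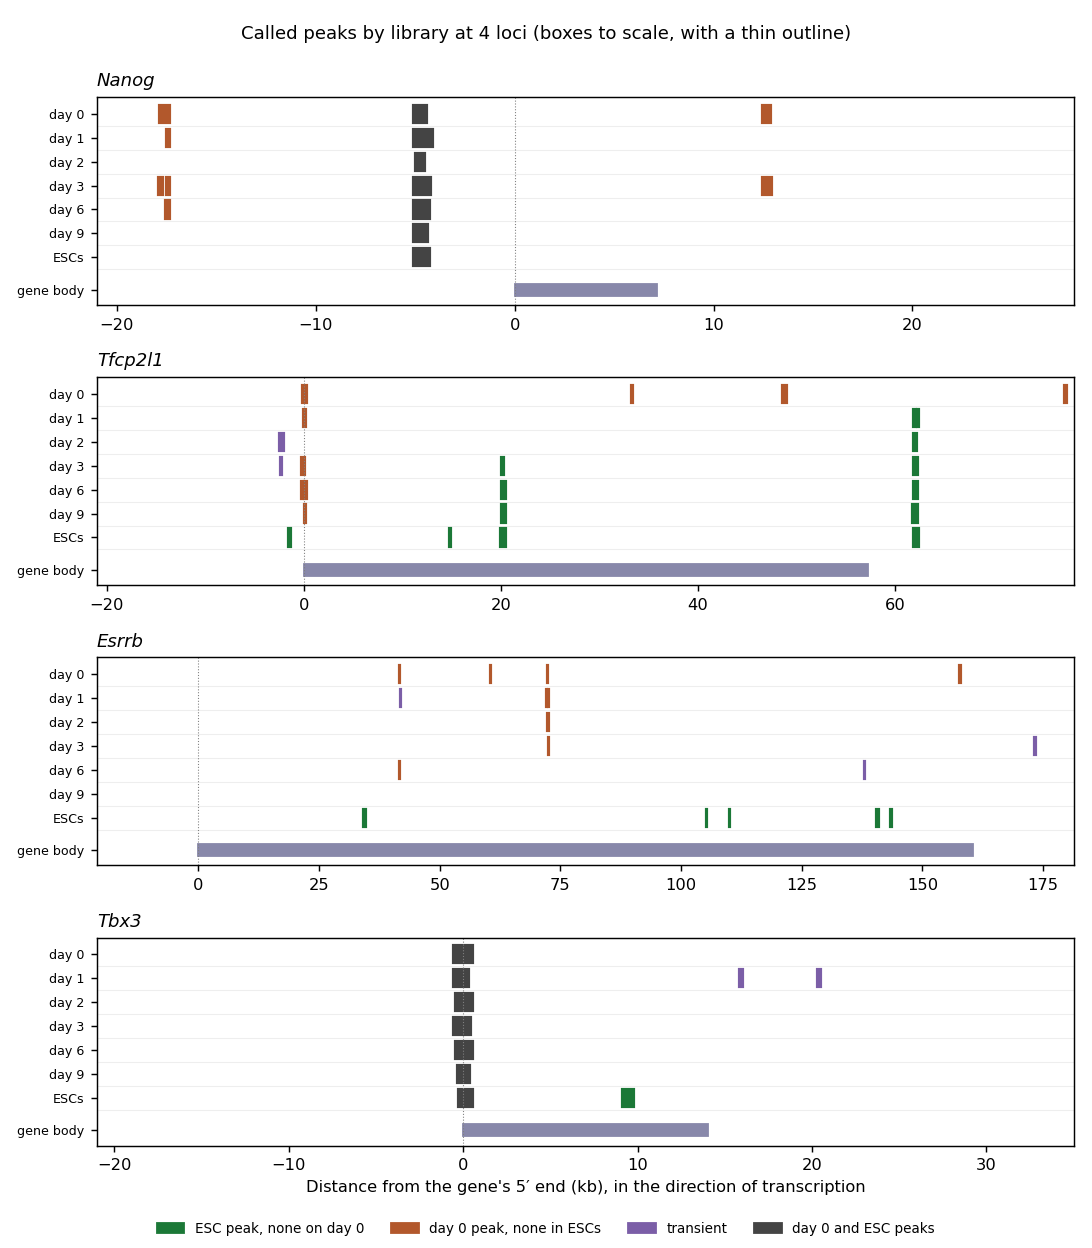
The horizontal axis is the distance from the 5′ end of the gene in kb, with the gene body as a bar at the bottom, and each line is a library. Boxes are called peaks coloured by class. At *Nanog* and *Tbx3* the grey boxes recur in all 7 libraries, at *Tfcp2l1* green boxes begin on day 1 and day 3, and at *Esrrb* all 5 green boxes are on the ESC line.

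*Zfp42* (chr8:43295063-43306980, minus strand) is the gene of the classical marker Rex1. It was the only 1 of the 10 genes with a promoter peak in ESCs and none at any of its TSSs on day 0. *Esrrb* and *Tbx3* also had a region near an internal TSS called in ESCs alone, but each had a day 0 peak at another TSS. The pattern of a promoter peak in ESCs and none on day 0 was found in 2.72% of protein-coding genes. The *Zfp42* region, chr8:43306843-43307440, spanned 598 bp over the 5′ end. It was the sole region within 20 kb of the gene. In the other libraries the nearest peak was 89.9 kb away in day 0 MEFs, and on days 1, 2, 3, 6 and 9 it was 42, 42, 41.9, 195 and 1150 kb away, so the promoter peak of ESCs stood alone. Its sequence above held an octamer match at base 47, a KLF match at base 158 and a TEAD match at base 188, counted from the first base shown. An octamer in the *Zfp42* promoter is known as a site of Oct4.

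*Prdm14* and *Nr0b1* also had 1 region each, called in ESCs alone. *Prdm14* (chr1:13113457-13127163, minus strand) represses differentiation genes and acts in germ cells. Its region, chr1:13103894-13104323, had a peak of 430 bp downstream of the gene, 23.1 kb from the 5′ end, and the nearest peaks of the MEF libraries were 34.4 to 67.2 kb from the 5′ end. At *Nr0b1* (chrX:86191764-86195947, plus strand), the peak of 286 bp at chrX:86187342-86187627 was 4.28 kb upstream. The 6 MEF libraries had no peak nearer than 208 to 415 kb. The central bases of the *Nr0b1* region held an ESRRB match at base 96, a SOX match at base 108 and an AP-1 match at base 112, the last 2 overlapping.

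*Sall4* (chr2:168748332-168767943, minus strand) had no promoter peak in any library. Its window held 2 regions, and the nearest TSS to both was that of the neighbouring gene *Atp9a*, a lipid flippase gene, within 1 kb. The region chr2:168742075-168742408 was called on days 0, 1, 2, 3 and 6 with 267, 260, 200, 224 and 293 bp. ESCs had a peak of 325 bp at chr2:168741443-168741767 instead, and day 9 had neither. The gained region counted for *Sall4* was therefore near the start of *Atp9a*, and with regions assigned to the gene of the nearest TSS *Sall4* had none. The ESC peak nearest to the 5′ end of *Sall4*, of 477 bp, lay 23.1 kb upstream (chr2:168791028-168791504). It was outside the 20 kb window and is not among the regions counted.

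*Nr5a2* (chr1:136842571-136960448, minus strand), the receptor that can replace Oct4 among the reprogramming factors, had no ESC peak in its window of 158 kb, and the nearest ESC peak was 90.9 kb from the 5′ end. Its peaks were in MEF libraries and near TSSs inside the gene. A region at 11.4 kb, chr1:136948817-136949184, was called on days 0, 2, 3 and 6 with 200, 200, 228 and 229 bp. A neighbouring peak of 200 bp was called on day 0 alone and another of 200 bp, at 6.39 kb, on day 9 alone. All peaks here were 200 to 229 bp wide, and 200 bp is the smallest size in any list.

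*Tcl1* (chr12:105216750-105222793, minus strand) had no region at all, as was the case for 13.8% of protein-coding genes. The ESC library came closest, with a peak of 200 bp at 33.5 kb (chr12:105189138-105189337), and the MEF libraries had their nearest peak at 159 to 190 kb. The plot of nearest peaks shows this order in *Zfp42*, *Sall4*, *Nr0b1*, *Prdm14* and *Tcl1*, where the ESC point lies below those of all MEF libraries, while *Nr5a2* has the ESC point above those of 5 of the 6.

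**Figure D4:**
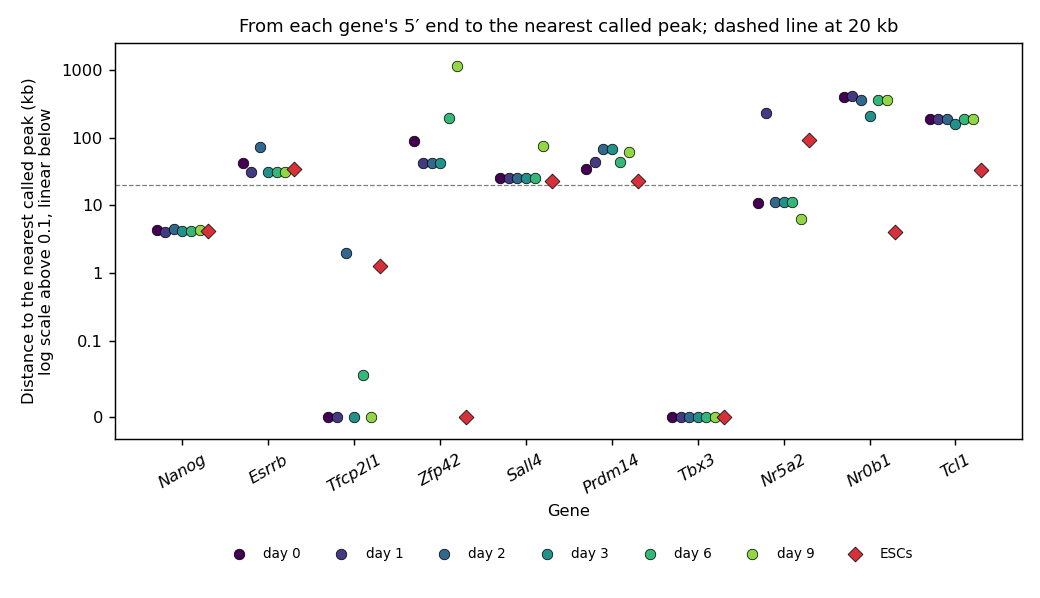
The vertical axis is the distance in kb from the 5′ end of each gene to the nearest called peak, on a log scale above 0.1 kb and a linear scale below, and 0 means that a peak covers the 5′ end. Circles are MEF libraries from dark (day 0) to light (day 9) and the red diamond is the ESC library. The dashed line marks 20 kb.

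Promoters, taken as the stretch within 1 kb of any annotated TSS of the gene, were called in a minority of the members in each library. A promoter peak was present in 4 of the 10 genes in day 0 MEFs, in 2 on each of days 1 and 2, in 3 on each of days 3, 6 and 9, and in 3 in ESCs. Among protein-coding genes the share was 59.7% in day 0 MEFs, then 55.8%, 51.6%, 56.4%, 57.4% and 53.4% on days 1, 2, 3, 6 and 9, and 50.3% in ESCs. The genes were not the same in each library. *Esrrb*, *Tfcp2l1*, *Tbx3* and *Nr5a2* made up the day 0 count and *Esrrb*, *Zfp42* and *Tbx3* the ESC count. No promoter peak was called in any library for 5 of the 10 (*Nanog*, *Sall4*, *Prdm14*, *Nr0b1* and *Tcl1*), against 34.7% of protein-coding genes. Of the 14 gained regions, 3 lay within 1 kb of a TSS of the member and 11 were counted as distal, and 6 of the 14 were intronic. Lost regions were split into 9 distal and 4 promoter regions, and transient regions into 6 and 1. The distal counts of gained and lost regions include those of *Sall4*, which lay within 1 kb of a TSS of *Atp9a*. These splits were not computed over all regions, so none can be called particular to the loci.

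The members with day 0 peaks over the 5′ end had the highest GC content there. Over the 250 bases before and 50 after the 5′ end, *Tbx3* had 70.3% GC and a CpG observed-to-expected ratio of 0.782, and *Tfcp2l1* had 65.3% and 0.656. *Zfp42*, called in ESCs alone, had 58.7% and 0.467. The 7 genes with no peak there ranged from 42% to 60% GC, with CpG ratios from 0.149 for *Sall4* to 0.528 for *Nr0b1*, and the medians of all protein-coding genes were 55% and 0.525.

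The promoter pattern of each member was shared with other genes. Among protein-coding genes, 291 others had a promoter peak in ESCs alone, like *Zfp42*, and *Dppa2*, a gene of early embryonic chromatin, was the one from the pluripotency lists, while *Sox17* had this pattern among the primitive endoderm markers. The pattern of *Tbx3*, a peak in all 7 libraries, was that of 9340 other genes, among them *Klf2*, *Klf4*, *Klf5*, *Fbxo15*, *Mybl2*, *Lefty1*, *Tet1* and *Pou3f1*. The fibroblast markers *Twist1* and *Snai2* and the trophoblast marker *Gata3* had it as well. Each of the 5 members without a promoter peak shared this with 7619 other genes. These include the remaining members of the 5 and *Dppa4*, *Lin28a*, *L1td1*, *Otx2* and *Sox3*. Among the fibroblast, endoderm and trophoblast markers, *Prrx1*, *Sox7*, *Foxa2*, *Cdx2* and *Elf5* had no promoter peak either. The patterns of *Tfcp2l1*, *Esrrb* and *Nr5a2* recurred in 182, 67 and 53 other genes, none of them from the pluripotency lists. *Zeb2*, a fibroblast marker here, and *Eomes*, a trophoblast marker, had the pattern of *Tfcp2l1*.

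Of the 36 regions, 21 had no day 0 peak. Days 1, 2, 3, 6 and 9 were the first with a peak for 4, 1, 2, 1 and 1 of them, and 12 had their first peak in ESCs. Day 1 was the first for 3 of the 7 transient regions, and for 14933 of 31999 transient regions genome-wide. ESCs were the first for 12 of the 14 gained regions (85.7%), against 75.6% of all gained regions. The regions first called on a day of doxycycline were mainly transient, 7 of 9 (77.8%), as were 90.7% of all regions first called on such a day. Transient regions were also the narrowest, and 5 of the 7 were exactly 200 bp wide, a width that 24.4% of all transient regions had. Gained regions had ESC peaks of 200 to 687 bp with a median of 390 bp. Their median region width was also 390 bp, near the 379 bp of all gained regions. Of the 14 regions, 1 was 200 bp wide, as were 12.5% of all gained regions. Of the 13 lost regions, 6 (46.2%) were called on day 0 and never again, against 53.9% of all lost regions. The last library with a peak was day 3 for 2, day 6 for 4 and day 9 for 1, the *Tfcp2l1* promoter. For these last days no share over all lost regions was computed.

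In a list of 20 other pluripotency genes, 15 genes had a gained region within 20 kb, with 32 gained regions in total, and 12 of these had a peak on a day of doxycycline, compared with 2 of 14 at the 10 loci. This difference was not tested. *Mybl2*, a cell cycle factor, had 5 gained regions of which 3 were seen on doxycycline days. *Pou5f1*, *Klf2* and *L1td1* had 3 gained regions each with 1 seen on those days. Per length the list had 28.5 gained regions per Mb. Among 8 formative and primed genes, which mark the later epiblast, 3 had a gained region (*Zic2*, with 3, *Otx2* and *Lef1*, with 1 each), and 2 of the 5 regions were seen on doxycycline days. Their promoters had peaks in 4 of 8 on day 0, 6 of 8 on days 3 and 6 and 2 of 8 in ESCs.

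The letters of the gained regions were compared with those of all gained regions over the central 200 bases. KLF matches were found in 6 of 14 (42.9%), against 12.6% of all gained regions and 10.2% of all regions. They lay in 2 regions of *Esrrb* and in the regions of *Tfcp2l1* (intron), *Zfp42*, *Prdm14* and *Tbx3*. ESRRB matches were found in 2 of 14 (14.3%), at *Nr0b1* and in the *Esrrb* region within 1 kb of an internal TSS, against 3.39% of all gained regions and 1.32% of all regions. The transient day 1 region of *Esrrb* held one as well. The octamer occurred once, at *Zfp42* (7.14%, against 3.88%), and SOX in 2 (14.3%, against 14.1%). AP-1 matches were in 2 gained regions (14.3%, against 5.51%) and in 2 of 13 lost regions (15.4%, against 24.7% of all lost regions), and TEAD matches in 3 (21.4%, against 15.9%). The E-box and the CTCF core had no match in the central 200 bases of the 36 regions, against 3.3% and 3.1% of all regions. Outside these bases, the *Tbx3* promoter region held an E-box, but matches over whole regions were not counted genome-wide. The composite Oct4-Sox2 letters, TTGT, any base and then ATGCAAA, which overlap the octamer, had none either, with 0.156% of all gained regions as the background. These are matches of letters with no test, and 14 regions are few. The GC content of the central bases was similar, with a median of 50.8% (40% to 76%) at the loci and 51.5% over all gained regions.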

How the data were processed

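ATAC-seq was measured in 7 mouse libraries, 1 per time-point. As described by the authors, paired-end reads were handled in Galaxy, trimmed to 50 bp with Trimmomatic, mapped to mm10 with Bowtie2, cleared of duplicates with Picard and downsampled to a common depth whose value is not given in the sources used here. Peaks were called per library with MACS2 at a q-value cut-off. The deposited files hold 3 columns (chromosome, start and end) and no score, so depth and significance per peak are unknown. Downsampling and the cut-off decide which weak peaks are listed.

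Peaks were counted as overlapping at 1 bp or more and merged into regions with Python 3.11.15 (pysam 0.24.0, numpy 2.4.6, matplotlib 3.10.9), with a check of the overlaps by BEDTools 2.31.1 and on simulated lists. Genes came from GENCODE M21 and sequence from GRCm38.p6, whose coordinates are those of mm10. Positions count from 1. Peaks outside chromosomes 1 to 19, X and Y were left out. The members, gene lists and rules were chosen with earlier results of these data known. The text names, per gene, promoter peaks, up to 3 gained, 2 transient and 2 lost regions (those of *Esrrb* and *Tfcp2l1* beyond this were named after their values were seen), genes with the same promoter pattern, and the list genes with most gained regions. Alternatives were a peak width of at least 300 bp, the same number of widest peaks in each library, windows of 10 and 50 kb, promoter distances of 500 and 2500 bp, merging within 300 bp, coverage of at least 50% of the region, the nearest TSS, and the 5 libraries the paper shows.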

Additional observations from a re-analysis of the deposited data

How the results depend on the processing

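Of 38 alternative values for the counts over the 10 loci, 29 stayed within 1.5 times the main count. With a window of 50 kb, gained regions numbered 24, lost regions 24 and transient regions 14, so gained regions were no longer the largest class. With peaks at least 300 bp wide there were 5 lost and 3 transient regions, and with lists cut to their 27074 widest peaks 4 and 4, since narrow peaks drop out by construction. Under both of these, 2 genes had a promoter peak in ESCs and none on day 0, as the 289 bp day 0 peak of *Esrrb* drops out. With equal numbers of peaks, 14 of 24 regions (58.3%) were gained, against 24.1% of all regions, and 2 of the 14 had a peak on a day between, against 25% of all. This cut left the ESC list whole and took peaks only from the other libraries. No gained region could therefore lose its ESC peak, and an unchanged count of 14 is weak evidence of stability. Shares over all regions were not recomputed for lost and transient regions or under the other alternatives. For single genes, 72 of 80 values stayed within 1.5 times the main count. *Nr0b1* had no gained region with peaks at least 300 bp wide, *Sall4* had none by the nearest TSS, and *Nanog* had 3 within 50 kb.

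No paired analysis was possible because there is 1 library per time-point. The read depth is unknown, so a site just under the cut-off cannot be told apart from a closed one, and counts of missing peaks in the short lists of days 2 and 9 and ESCs are the least certain.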
